A study of Mus musculus with 6 samples.

Results

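The 36 genes described here encode the contractile and excitation apparatus of skeletal muscle, and they were chosen by symbol from the 18697 genes of the count table. All 36 were found. The libraries came from prostates of mice with experimental autoimmune prostatitis (EAP), a model of autoimmune inflammation of the gland, and were made from total RNA. In 3 libraries the mice had been given VUF11207, which activates CXCR7 (Ackr3), a chemokine receptor that does not signal in the usual way, at 5 mg per kg per day by intraperitoneal injection for 14 days, and in the other 3 the same volume of the vehicle DMSO for 14 days. All mice of both groups had EAP, and libraries from mice without it were not analysed here. Strain and age were not given in the sources used here. VUF11207 libraries are replicates 1 to 3, and DMSO libraries are replicates 2 and 3 and a library, called the unnumbered DMSO library, whose column name gives the DMSO group but could not be tied to a replicate number in the labels. The labels do not tie libraries to single mice, and the p-values therefore cover only the differences among these 6 samples, which may be technical.

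Skeletal muscle contracts when myosin heavy chains of the thick filament pull on actin of the thin filament, within sarcomeres anchored at Z-discs. The nerve impulse opens this cycle through the calcium channel of the fibre membrane and the ryanodine receptor of the sarcoplasmic reticulum, and a calcium pump ends it. Fast fibres and slow fibres use different genes for the same parts: myosin heavy and light chains, troponins, myosin-binding proteins and the calcium pump. The prostate itself holds smooth muscle, which uses other actin and myosin genes, while striated muscle surrounds the adjacent urethra and the pelvic floor.

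The promoters of 4 members are shown because these genes behaved differently from each other across the libraries described next. Myh4, the heavy chain of the fastest fibres, and Ckm, the creatine kinase of muscle, followed the bulk of the members to different depths, Acta1, the skeletal muscle actin, stayed high in every library, and Myl3, a light chain of slow fibres, was high in libraries where the slow genes Myh7, Myl2, Tnni1 and Tnnc1 were near 0. The sequences are RefSeq's, build GRCm38.p6, from 250 bases before to 50 after the start of the gene, 5′ to 3′ on the strand of the gene. They lie at chr11:67237562-67237861 on the plus strand for Myh4, chr7:19410844-19411143 on the plus strand for Ckm, chr8:123894726-123895025 on the minus strand for Acta1 and chr9:110763428-110763727 on the plus strand for Myl3. Capitals mark E-boxes (CANNTG, the sequence that the MyoD family of muscle transcription factors binds), CArG boxes (the element of serum response factor) and MEF2 boxes, on both strands, since each of these motifs reads alike on both.
Myh4: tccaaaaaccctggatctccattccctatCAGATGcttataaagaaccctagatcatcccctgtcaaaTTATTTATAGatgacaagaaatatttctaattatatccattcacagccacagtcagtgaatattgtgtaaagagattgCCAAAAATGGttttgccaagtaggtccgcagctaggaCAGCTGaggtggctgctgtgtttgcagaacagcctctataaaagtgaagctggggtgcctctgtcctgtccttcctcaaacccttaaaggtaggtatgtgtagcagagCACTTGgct
Ckm: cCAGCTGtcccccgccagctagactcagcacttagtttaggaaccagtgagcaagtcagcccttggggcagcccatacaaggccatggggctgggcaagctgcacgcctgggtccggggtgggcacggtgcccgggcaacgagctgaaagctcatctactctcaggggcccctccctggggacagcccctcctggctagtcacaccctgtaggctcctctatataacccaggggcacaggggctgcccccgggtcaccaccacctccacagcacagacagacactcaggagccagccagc
Acta1: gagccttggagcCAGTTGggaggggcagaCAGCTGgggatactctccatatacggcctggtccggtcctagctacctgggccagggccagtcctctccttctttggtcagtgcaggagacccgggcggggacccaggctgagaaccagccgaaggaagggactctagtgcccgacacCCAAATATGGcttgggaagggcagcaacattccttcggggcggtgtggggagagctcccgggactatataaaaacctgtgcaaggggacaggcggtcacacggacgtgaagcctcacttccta
Myl3: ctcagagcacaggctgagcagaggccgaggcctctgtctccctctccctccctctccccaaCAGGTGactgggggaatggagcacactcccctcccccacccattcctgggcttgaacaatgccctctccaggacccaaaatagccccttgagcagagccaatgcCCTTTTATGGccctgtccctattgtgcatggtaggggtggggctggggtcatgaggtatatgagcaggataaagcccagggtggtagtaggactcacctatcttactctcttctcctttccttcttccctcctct

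The Myh4 promoter held 3 E-boxes, 1 CArG box and 1 MEF2 box. That of Acta1 held 2 E-boxes and 1 CArG box, that of Myl3 1 of each, and that of Ckm 1 E-box. Promoters were listed for 29 members, and not for Actn3, Neb, Tcap, Myot, Myoz1, Tnnt3 and Tnni2. An E-box was present in 31 of 35 promoter entries of these members (88.6%) and in 72.3% of all 32851 promoters. A CArG box was present in 3 of the 35 (8.57%), those of Acta1, Myh4 and Myl3, and in 1.63% of all promoters. MEF2 boxes were found in 6 of the 35 (17.1%), those of Myh1, Myh4, Myh8, Pvalb, Ttn and Xirp2, and in 3.19% of all. These matches describe letters in a window and say nothing of binding.

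The libraries differed widely in muscle content, and this difference lay within both groups. The 36 members took 0.885% of all counts in VUF11207 replicate 1, 0.170% in replicate 2 and 0.0984% in replicate 3. In DMSO they took 0.130% in the unnumbered library, 0.0225% in replicate 2 and 1.04% in replicate 3. VUF11207 replicate 1 and DMSO replicate 3 thus stood above the other 4 libraries, and each group held such a library. The order among the other 4 depended on Acta1. This gene alone made up 82.4% of the member counts in VUF11207 replicate 2 but 35.4% in VUF11207 replicate 3. In the unnumbered DMSO library and DMSO replicate 2 it made up 79.7% and 68.6%. Wilson 95% intervals of these shares, which cover counting error only, ran from 0.882% to 0.889% for VUF11207 replicate 1 and from 0.0220% to 0.0230% for DMSO replicate 2. Total counts per library were from 20308018 to 33368058. Counting error was far smaller than the spread between libraries of a group. The 10 seminal vesicle genes, markers of the gland beside the prostate, took 28.4%, 3.115% and 3.633% of counts in VUF11207 replicates 1, 2 and 3 and 0.705%, 66.1% and 16.29% in the unnumbered DMSO library and DMSO replicates 2 and 3, and none of them was at 0. With their counts left out of the total, the members' share was 1.24%, 0.176% and 0.102% with VUF11207 and 0.131%, 0.0664% and 1.25% with DMSO, and the order of the 2 richest libraries against the others was kept. The part of seminal vesicle tissue in the muscle content was not tested. In bulk tissue, fewer cells of a type and less RNA per cell cannot be told apart.

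**Figure D1:**
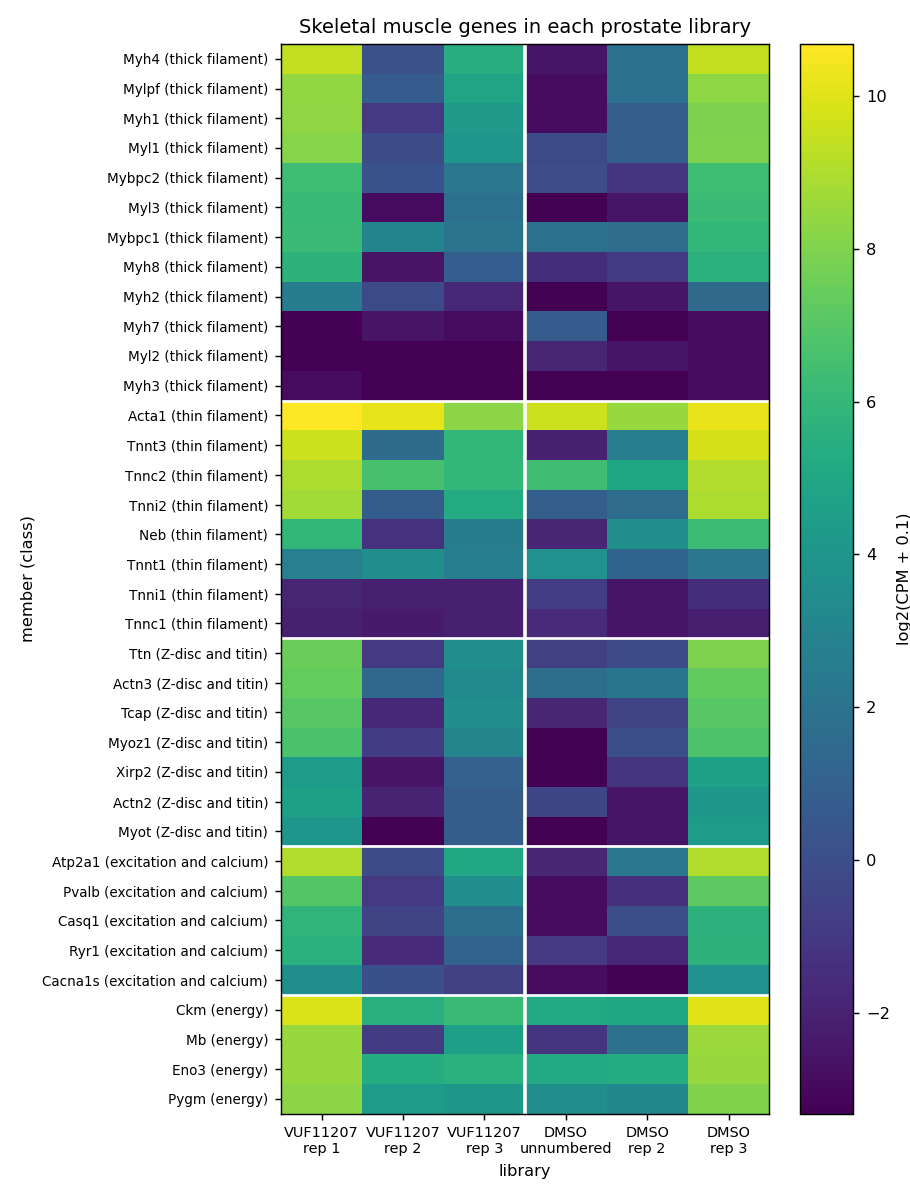
Level of each of the 36 members (rows, grouped by class) in each library (columns, VUF11207 left of DMSO), as log2 of CPM plus 0.1, where CPM is the count relative to the TMM-scaled size of the library. Most rows are bright in VUF11207 replicate 1 and DMSO replicate 3, of intermediate colour in VUF11207 replicate 3 and dark elsewhere, while Acta1 is bright in all 6 libraries.

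For 31 of the 36 members the highest 2 levels were in VUF11207 replicate 1 and DMSO replicate 3. The share of all genes with these 2 highest libraries is not given here. Myh3 is counted among the 31 with only 1 count in each of these libraries. The 5 exceptions, Myh7, Myl2, Tnnt1, Tnni1 and Tnnc1, were all slow-fibre genes, but only Tnnt1 passed the low count filter. Myh7, Myl2, Tnni1 and Tnnc1 had at most 41, 5, 13 and 6 counts in any library. The order of their libraries therefore rests on few counts. The slow-fibre genes Myl3 and Mybpc1 are among the 31. VUF11207 replicate 3 came next for 23 of the 31. The 14 skeletal muscle markers are all among these 31 members, so their count adds no separate support. They passed the low count filter and had these same 2 highest libraries, 14 of 14. By contrast 0 of 12 smooth muscle genes, 0 of 10 seminal vesicle genes, 0 of 9 prostate secretory genes, 0 of 8 endothelial genes, 0 of 8 T cell genes, 0 of 7 red blood cell genes and 0 of 6 urothelial genes had them, and 4 of 10 Schwann cell and nerve genes, 2 of 11 adipocyte genes and 2 of 6 brown adipocyte genes did. The cardiac list had 1 of 11. Its members Nppb and Bmp10, which encode a natriuretic peptide and a growth factor of the heart, were at 0 counts in all 6 libraries. The list was not absent as a whole. Tnnt2, Tnni3, Myh6 and Nppa were highest in the unnumbered DMSO library, at 1179, 171, 77 and 15 counts. Sbk2 and Ryr2 had their highest level in DMSO or VUF11207 libraries rich in muscle, at 408 and 74 counts in VUF11207 replicate 1. Myl7, Hcn4 and Mybpc3 had at most 6 counts in any library.

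The thick filament class holds 12 members, and its fast genes differed widely between libraries. Myh4, which encodes the myosin heavy chain of the fastest fibres, was at 685, 1.01 and 41.7 CPM in VUF11207 replicates 1, 2 and 3, against 0.0740, 3.31 and 665 CPM in the unnumbered DMSO library and DMSO replicates 2 and 3. CPM is the count relative to the library's size as scaled by TMM, a method that evens out libraries in which a few genes take many reads. The TMM factors ran from 0.4255 in DMSO replicate 2 to 1.333 in the unnumbered DMSO library. Levels in CPM therefore place DMSO replicate 2 higher against the other libraries than shares of all counts do. The high and low libraries of Myh4 thus occurred in both groups, and the groups overlapped fully. Myh1, another fast heavy chain, was at 332, 0.403 and 18.8 CPM with VUF11207 and at 0.0370, 1.76 and 243 CPM with DMSO. Mylpf, the regulatory light chain of fast fibres, was at 338, 1.61 and 28.7 CPM with VUF11207 and at 0.0370, 3.38 and 320 CPM with DMSO. The pattern was the same as for Myh4 in these libraries. Myh2, the heavy chain of intermediate fast fibres, was low throughout, at 5.88, 0.772 and 0.203 CPM with VUF11207 and 0, 0.0705 and 2.75 CPM with DMSO.

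The heavy chain genes Myh3, Myh2, Myh1, Myh4 and Myh8 lie on the plus strand of chromosome 11 between positions 67078300 and 67308634, and Myh7 lies on the minus strand of chromosome 14 from 54970684 to 54994626 (GRCm38, GENCODE M21). Among these 6 members, Myh4 took most of the counts per exon base wherever there was enough to measure. Its share was 66.4% in VUF11207 replicate 1, 68.9% in VUF11207 replicate 3 and 72.0% in DMSO replicate 3. Myh1 took 30.5%, 29.3% and 24.9% in the same 3 libraries, and Myh8, a heavy chain of perinatal and some specialised muscle, 2.64%, 1.46% and 2.77%. Myh2 was at most 0.481% there. The mixture was thus alike in VUF11207 replicate 3, with 1847 heavy chain counts, and in the richest libraries, with 31822 and 29725. VUF11207 replicate 2 and DMSO replicate 2 held 69 and 79 heavy chain counts, too few for a firm composition. Of the 50-base windows of Myh4 transcripts 18.6% also occur in another heavy chain gene, and 24.8% of those of Myh1, so values of single heavy chains are uncertain to the extent that such reads were split or dropped.

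Myh7 ran the other way. This heavy chain of slow fibres and of heart ventricle had 0, 2 and 1 counts in VUF11207 replicates 1, 2 and 3 and 41, 0 and 1 counts in the unnumbered DMSO library and DMSO replicates 2 and 3. The unnumbered library, with only 2 counts of Myh4, thus held nearly all Myh7 counts of the series. The same library had 77 counts of Myh6, the atrial heavy chain from the cardiac list, against at most 1 in each other library. Of Myh7 windows 15.6% are shared with Myh6. Myh3, the embryonic heavy chain, had 1 count in VUF11207 replicate 1 and 1 in DMSO replicate 3.

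The 8 thin filament members did not share a single pattern. Tnnt3 and Tnni2 had their 3 highest libraries in common with Myh4, while Acta1, Tnnc2, Neb and the slow troponins differed from it. Tnnt3, fast troponin T, which ties the troponin complex to tropomyosin, was at 772, 2.99 and 61.3 CPM with VUF11207 and at 0.148, 6.27 and 867 CPM with DMSO. Tnni2, the inhibitory subunit of fast fibres, was at 429, 1.64 and 39.6 CPM with VUF11207 and 1.78, 3.10 and 502 CPM with DMSO. Both repeat the order in which 2 libraries stand high, 1 in each group. Tnnc2, the calcium-binding subunit, was also highest there, at 502 and 542 CPM, but kept 96.3 and 60.7 CPM in VUF11207 replicates 2 and 3 and 82.6 and 31.3 CPM in the unnumbered DMSO library and DMSO replicate 2. Its exons overlap those of Ube2c, a cell cycle gene on the other strand, and the strand setting of the counting is not given in the sources used here.

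Acta1, the actin of skeletal muscle, kept a high level in every library. It was at 1643, 1126 and 306 CPM in VUF11207 replicates 1, 2 and 3 and at 776, 363 and 1203 CPM in the unnumbered DMSO library and DMSO replicates 2 and 3. It made up 82.4% of all member counts in VUF11207 replicate 2 and 79.7% in the unnumbered DMSO library, against 18.7% in VUF11207 replicate 1 and 14.2% in DMSO replicate 3. Its share was 35.4% in VUF11207 replicate 3 and 68.6% in DMSO replicate 2. Acta1 thus made up most of the member counts in 3 of the 4 poorer libraries, the exception being VUF11207 replicate 3. The 12 smooth muscle genes, among them the smooth muscle actin Acta2 and myosin Myh11, summed to 8306, 17566 and 3903 CPM with VUF11207 and to 13776, 4578 and 4037 CPM with DMSO, and none was at 0. As a percentage of that sum, Acta1 was at 6.41% in VUF11207 replicate 2, 7.85% in VUF11207 replicate 3, 5.63% in the unnumbered DMSO library and 7.93% in DMSO replicate 2, and at 19.8% in VUF11207 replicate 1 and 29.8% in DMSO replicate 3. The part of smooth muscle cells in the Acta1 level was not tested.

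**Figure D2:**
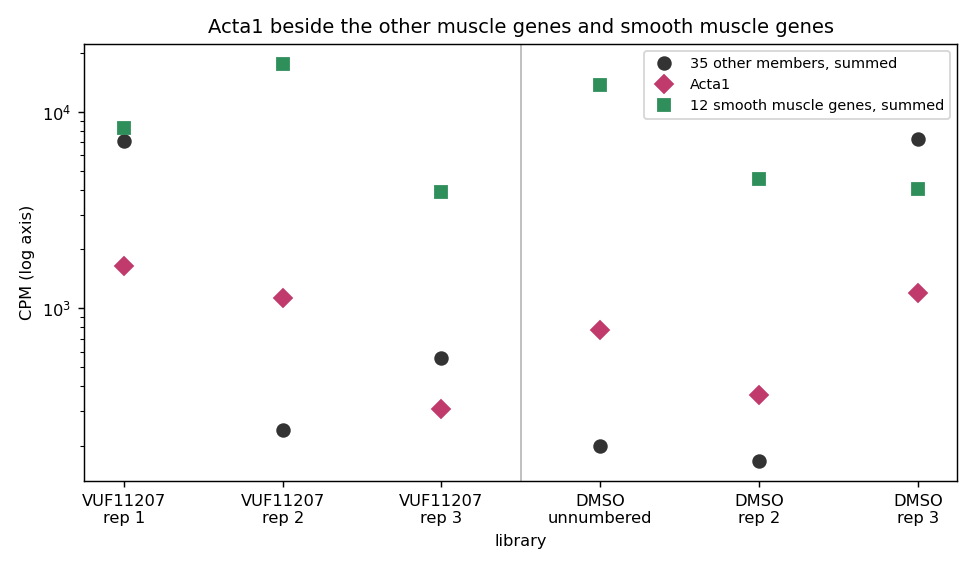
Level of Acta1 (diamonds), summed level of the 35 other members (circles) and summed level of 12 smooth muscle genes (squares) in each library, in CPM on a log axis, with VUF11207 left of DMSO. The 35 other members sum to 7130 and 7291 CPM in VUF11207 replicate 1 and DMSO replicate 3 and to between 166 and 559 CPM in the other 4 libraries, where Acta1 lies between 306 and 1126 CPM.

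Z-disc and titin genes were close to absent from the poorest libraries. Ttn, the giant spring protein that spans the sarcomere from Z-disc to midline, was at 184, 0.403 and 12.3 CPM with VUF11207 and at 0.518, 0.845 and 255 CPM with DMSO. Actn3, the alpha-actinin of fast fibres, was at 165, 2.55 and 10.3 CPM with VUF11207 and 3.29, 4.30 and 160 CPM with DMSO. The 7 members of this class summed to 643, 3.83 and 48.2 CPM with VUF11207 and to 4.66, 7.19 and 716 CPM with DMSO. Besides Ttn and Actn3 they are Actn2, Tcap, Myot, Myoz1 and Xirp2, which encode proteins that bind or cap the Z-disc. Neb, nebulin of the thin filament, departed from this order in DMSO replicate 2. It was there at 12.3 CPM, or 19.7% of its level in VUF11207 replicate 1, whereas Ttn was at 0.460% of its own. Exons of both genes overlap a gene on the other strand.

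Of the 5 excitation and calcium genes, all were highest in VUF11207 replicate 1 and DMSO replicate 3, and 4 had VUF11207 replicate 3 next, the exception being Cacna1s. Atp2a1, the fast-fibre calcium pump that returns calcium to the sarcoplasmic reticulum, was at 547, 0.872 and 32.4 CPM with VUF11207 and 0.185, 4.79 and 540 CPM with DMSO. Ryr1, the calcium release channel, was at 49.4, 0.235 and 2.13 CPM with VUF11207 and 0.407, 0.211 and 53.3 CPM with DMSO. Cacna1s, the voltage sensor of the membrane that triggers Ryr1, was the lowest of the 5 per exon base in VUF11207 replicate 1. Its levels were 12.4, 0.973 and 0.541 CPM with VUF11207 and 0.0370, 0 and 13.4 CPM with DMSO. Pvalb, parvalbumin, a calcium buffer of fast fibres, was at 123, 0.403 and 11.4 CPM with VUF11207 and 0.0370, 0.282 and 150 CPM with DMSO. Casq1, the calcium store protein of the reticulum, completes the class with a range from 0.0370 to 56.8 CPM.

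Energy genes differed in how much remained in the poorer libraries. Mb, myoglobin, the oxygen store of muscle, was at 370, 0.436 and 24.3 CPM with VUF11207 and 0.333, 3.80 and 386 CPM with DMSO. Ckm, which buffers ATP, was at 960, 45.1 and 76.0 CPM with VUF11207 and 36.0, 29.4 and 1016 CPM with DMSO. Ckm was thus present throughout, while Mb had a library under 1 CPM in both groups. Exons of Ckm and of Mb overlap genes on the other strand. Eno3, the muscle enolase of glycolysis, stayed at 37.9 CPM or above, and Pygm, the muscle glycogen phosphorylase, at 8.74 CPM or above.

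Members therefore formed a steep set and a set with a remaining level, divided at a line drawn after their values were seen. For 22 members the lowest library was under 1% of the highest, and for 8 (Acta1, Actn3, Ckm, Tnnt1, Tnnc2, Mybpc1, Eno3 and Pygm) it was at 1.55% or more. The nearest of the 22 was Mybpc2 at 0.434%. The remaining 6 members never reached 10 CPM. Over the 22, the median level in VUF11207 replicate 3 was 6.63% of that in VUF11207 replicate 1, from 3.23% to 9.92%. VUF11207 replicate 2 was at a median of 0.320% on this scale. For the DMSO libraries the median was 0.0776% in the unnumbered library, 0.579% in replicate 2 and 106% in replicate 3, the last with a range from 72.1% for Actn2 to 139% for Ttn. The 8 other members spread more widely in VUF11207 replicate 3, from 5.45% for Mybpc1 to 92.5% for Tnnt1, with Acta1 at 18.6%. In DMSO replicate 3 these 8 were at 69.0% to 108% of their level in VUF11207 replicate 1.

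**Figure D3:**
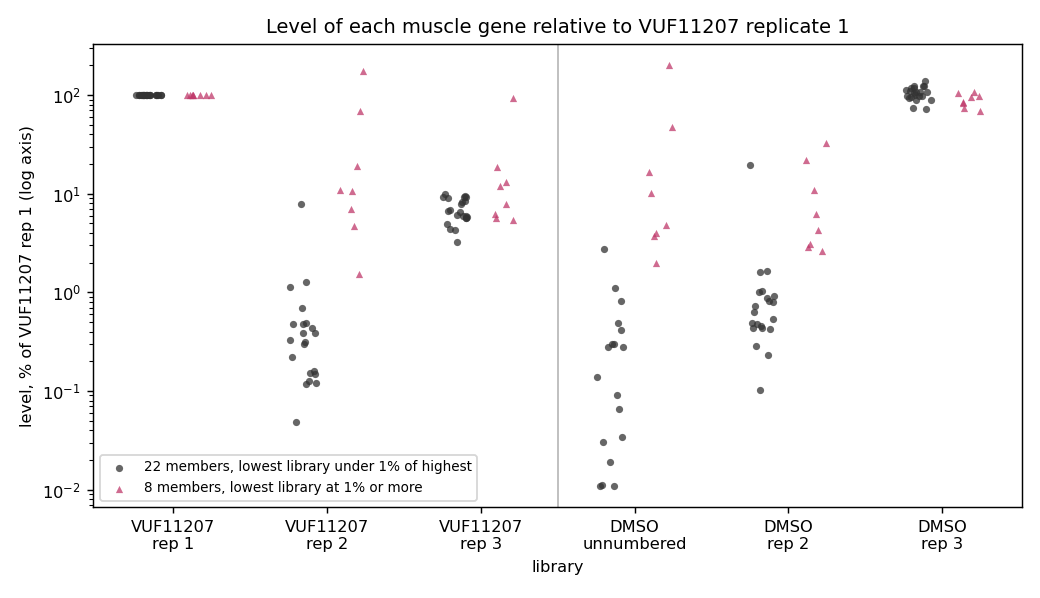
Level of each member in each library as a percentage of its own level in VUF11207 replicate 1 (log axis), for the 22 members whose lowest library was under 1% of the highest (circles) and the 8 at or above 1% (triangles). The circles sit near 100% in DMSO replicate 3, between 3.23% and 9.92% in VUF11207 replicate 3 and mostly under 1% in the other 3 libraries, and 6 values of 0 are not drawn.

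Fast-fibre isoforms outweighed slow ones in the muscle-rich libraries, with exceptions among the slow genes. Each of 7 fast genes was set against its slow partner as counts per exon base. Tnni2 made 99.98% of its pair with Tnni1 in VUF11207 replicate 1 and 99.98% in DMSO replicate 3, and Tnnt3 made 99.4% and 99.6% of its pair with Tnnt1. Mylpf had 10008 counts in VUF11207 replicate 1 and 9907 in DMSO replicate 3, where its slow partner Myl2 had 0 and 1. Slow troponin C, Tnnc1, and slow troponin I, Tnni1, had at most 6 and 13 counts in any library. So 4 slow members, Myh7, Myl2, Tnni1 and Tnnc1, were near 0 in the libraries richest in muscle.

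Myl3 and Mybpc1 did not share this absence. Myl3, a light chain of slow fibres and of heart, was at 69.0, 0.0336 and 3.38 CPM with VUF11207 and at 0, 0.0705 and 75.4 CPM with DMSO, an order like that of Myh4. Its pair with fast Myl1 was 80.0% fast in VUF11207 replicate 1, 82.8% in VUF11207 replicate 3 and 76.8% in DMSO replicate 3. The exons of Myl3 overlap those of Pth1r on the other strand. Mybpc1, slow myosin-binding protein C, was at 73.8, 7.79 and 4.02 CPM with VUF11207 and 3.52, 3.17 and 62.0 CPM with DMSO. Its pair with fast Mybpc2 was nearly balanced in the richest libraries, at 58.0% fast in VUF11207 replicate 1 and 62.1% in DMSO replicate 3.

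Tnnt1, slow troponin T, followed yet another order. It was at 6.69, 11.8 and 6.19 CPM with VUF11207 and at 13.5, 2.18 and 4.62 CPM with DMSO. Its 2 highest libraries, the unnumbered DMSO library and VUF11207 replicate 2, were also the 2 with the highest summed smooth muscle level, at 13776 and 17566 CPM. What that has to do with Tnnt1 was not tested. In the pair with Tnnt3 this made these libraries mostly slow, with 89 counts of Tnnt3 and 352 of Tnnt1 in VUF11207 replicate 2, and 4 and 365 in the unnumbered DMSO library. Over all 7 pairs together the fast share was 97.4%, 94.6% and 97.1% in VUF11207 replicates 1, 2 and 3 and 93.3%, 96.4% and 97.6% in the unnumbered DMSO library and DMSO replicates 2 and 3. The groups overlapped in this share. In the libraries poor in muscle it rested on Tnnc2, whose overlap with Ube2c was given above: 2871 of the 3143 fast counts in VUF11207 replicate 2 and 2233 of the 2333 in the unnumbered DMSO library were of this gene. Without the pair of Tnnc2 and Tnnc1, an alternative chosen after the values were seen, the fast share was 96.25%, 42.9% and 95.3% in VUF11207 replicates 1, 2 and 3 and 21.04%, 85.7% and 96.5% in the unnumbered DMSO library and DMSO replicates 2 and 3. VUF11207 replicate 2 and the unnumbered DMSO library were then mostly slow, and the groups still overlapped. Their slow counts were mainly of Tnnt1 and Mybpc1. These had 352 and 232 of 591 slow counts in VUF11207 replicate 2 and 365 and 95 of 519 in the unnumbered DMSO library. Whether these counts came from slow fibres was not tested.

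**Figure D4:**
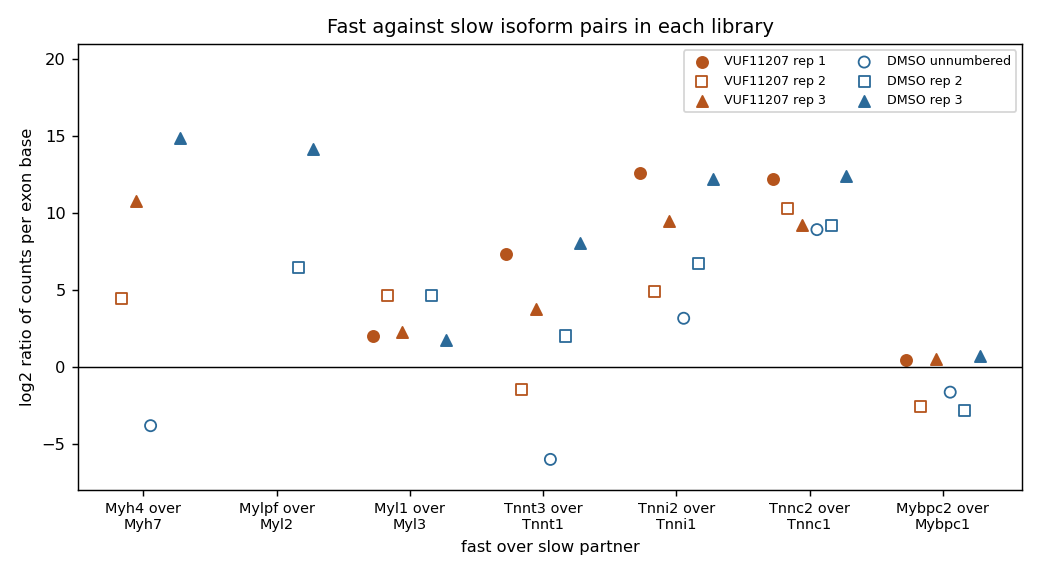
Log2 ratio of the counts per exon base of each fast gene to those of its slow partner in each library, VUF11207 in orange and DMSO in blue, for pairs with at least 20 counts in a library; pairs with a gene at 0 are not drawn. Ratios of Tnni2 over Tnni1 and of Tnnt3 over Tnnt1 are highest in VUF11207 replicate 1 and DMSO replicate 3, while Mybpc2 over Mybpc1 stays within 1 log2 unit of equality there.

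Between VUF11207 and DMSO, no member passed the test. Of the 36 members 31 passed the filter on low counts, and Myh3, Myh7, Myl2, Tnni1 and Tnnc1 did not. In edgeR's quasi-likelihood test, with Benjamini-Hochberg adjustment over all 13753 genes tested, 0 of 31 members passed an adjusted p of 0.05, beside 0% of all genes. At an unadjusted p under 0.05 there were 0 members, beside 1.43% of all genes. DESeq2 called 0 of the 19 members for which it gave a p, beside 0.0231% of all genes. Among the named members it gave no adjusted p for Actn3, Ckm, Ttn, Myh1, Myh4, Atp2a1, Ryr1, Cacna1s and Mb. The groups overlapped for all 31 members tested, while 5.57% of all genes had no overlap. The median log2 fold change of the 31 was 0.075, with 20 positive and 11 negative, beside a median of -0.041 over all genes, of which 44.7% were positive. Scaling by library totals turned the members' median to -0.17, with 7 positive, and moved the median of all genes to 0.14.

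These fold changes had large errors, and each group held a muscle-rich library. Myh4 averaged 242 CPM ± 383 with VUF11207 and 223 CPM ± 383 with DMSO (SD, n = 3 each). The edgeR estimate on the log2 scale was 0.12 ± 2.65 (SE), with a 95% interval from -6.23 to 6.48. For Acta1 the means were 1025 CPM ± 674 with VUF11207 and 781 CPM ± 420 with DMSO (SD, n = 3 each), and the log2 estimate was 0.39 ± 0.69 (SE), its interval running from -1.26 to 2.04. Tnnt1 had the smallest error, at 0.28 ± 0.66 (SE) on the log2 scale, and its interval ran from -1.30 to 1.85. Myh2 had the largest fold change, at 1.24 ± 1.81 (SE), and Ttn the most negative, at -0.38 ± 2.42 (SE). The adjusted p was 0.9999 or higher for all 31 in edgeR. Such intervals leave room for large changes in either direction, so the data do not show equal muscle content in the groups.

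**Figure D5:**
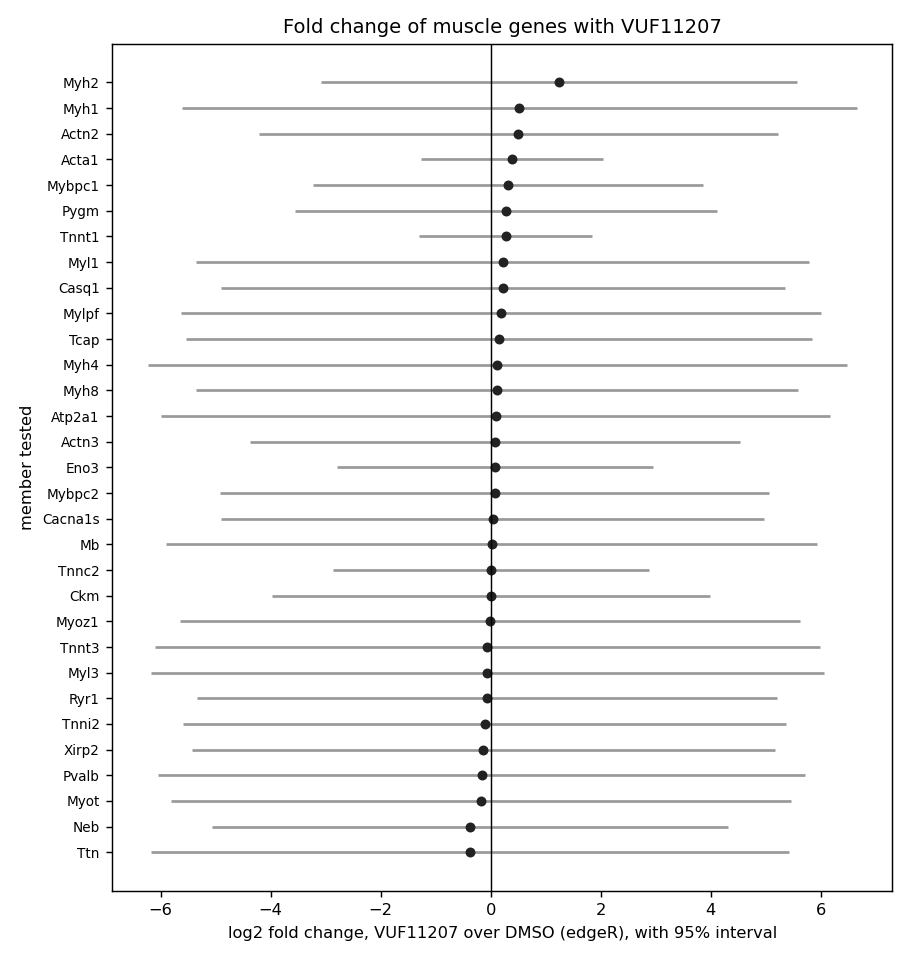
Log2 fold change of VUF11207 over DMSO for the 31 members tested (points) with 95% intervals (lines) from edgeR's quasi-likelihood fit. All intervals include 0, those of Acta1 and Tnnt1 are the narrowest, and most reach beyond 4 log2 units on both sides.

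The other named members lay within the same range. Log2 fold changes were 0.52 ± 2.56 for Myh1, 0.19 ± 2.42 for Mylpf, -0.063 ± 2.52 for Tnnt3 and -0.11 ± 2.28 for Tnni2 (SE). For the calcium genes they were 0.091 ± 2.54 for Atp2a1, -0.065 ± 2.20 for Ryr1, 0.037 ± 2.06 for Cacna1s and -0.17 ± 2.46 for Pvalb (SE). Actn3 was at 0.083 ± 1.86, Ckm at -0.00053 ± 1.66 and Mb at 0.017 ± 2.47 (SE). None of these passed, and each sign turned when 1 or another single library was left out. Without DMSO replicate 3 the median over the 31 members was 6.03, with 31 positive, and without VUF11207 replicate 1 it was -3.05, with 1 positive. Without both of these libraries, 25 members could be tested, with a median of 2.21 and 24 positive, and 0 passed. It was -0.47 without the unnumbered DMSO library, -0.48 without DMSO replicate 2, and 0.56 without VUF11207 replicate 2 and 0.57 without VUF11207 replicate 3.

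Further genes of muscle, in 4 lists by function, gave the same count. Of 34 further sarcomere genes 26 were tested and 0 passed in edgeR, 14 of them positive, with a median of 0.039 on the log2 scale. Of 27 further excitation and calcium genes 20 were tested and 0 passed, with 11 positive and a median of 0.080. Among 20 further energy genes, 19 were tested, 0 passed and 11 were positive, with a median of 0.075. Of 12 myogenic regulators 5 were tested and 0 passed, with 2 positive and a median of -0.13. In these lists VUF11207 replicate 1 and DMSO replicate 3 were the highest 2 libraries for 27 of 34, 21 of 27, 17 of 20 and 8 of 12 genes. For all genes this share is not given here.

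The most abundant genes of these lists differed in how far they followed the muscle-rich libraries. Aldoa, a glycolytic aldolase, was at 1728, 600 and 589 CPM with VUF11207 and at 546, 575 and 2008 CPM with DMSO, and Pfkm, muscle phosphofructokinase, at 197, 23.2 and 31.0 CPM against 20.6, 22.5 and 182 CPM. Both stood high in the muscle-rich libraries over a remaining level elsewhere. Ldha, lactate dehydrogenase A, varied far less, from 336 to 437 CPM with VUF11207 and from 272 to 407 CPM with DMSO. Atp2a2, the calcium pump of slow, cardiac and smooth muscle, was at 405, 369 and 229 CPM with VUF11207 and 290, 226 and 237 CPM with DMSO. Its level thus did not follow that of its fast counterpart Atp2a1. Bin1 and Jph2, which shape the junctions between membrane and reticulum, ranged from 41.2 to 82.5 CPM and from 17.6 to 82.4 CPM over the 6 libraries. In the sarcomere list Flnc, a Z-disc filamin, ranged from 15.4 to 70.7 CPM, Tmod4, which caps thin filaments, from 1.48 to 121 CPM and Myom1, which links thick filaments, from 7.78 to 58.5 CPM. Among the regulators, the transcription factors Mef2d and Six4 ranged from 24.8 to 41.8 CPM and from 11.8 to 27.6 CPM over the 6 libraries.

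Myf6, Myog, Myod1 and Myf5, the 4 transcription factors of the MyoD family, are named after their values were seen. Myf6, which is high in mature fibres, had 339, 0 and 26 counts in VUF11207 replicates 1, 2 and 3 and 0, 0 and 488 counts in the unnumbered DMSO library and DMSO replicates 2 and 3. Myog, a factor of differentiation, had 49, 0 and 0 counts with VUF11207 and 0, 0 and 100 with DMSO. Myod1 had 31, 0 and 0 counts against 0, 0 and 80, and Myf5 15, 0 and 0 against 0, 0 and 21. All 4 were thus found in VUF11207 replicate 1 and DMSO replicate 3, and beyond these only Myf6 had counts, in VUF11207 replicate 3. Pax7, of muscle stem cells, had at most 4 counts in any library.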

How the data were processed

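Gene counts of 6 mouse prostate libraries, 3 of VUF11207 and 3 of DMSO, were used as deposited. The deposited values are raw counts, whole numbers of reads for each gene symbol. Per the submitters' processing notes the authors used fastp, HISAT2, HTSeq and build mm10, with no versions. Gene annotation, strand setting and the handling of reads that match several genes were not given in the sources used here. The 5 files of single samples were identical to the table. Groups came from titles, except for the unnumbered DMSO library, whose group came from its column name because that column heads no single-sample file.

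Counts were scaled by TMM, filtered with filterByExpr and tested in edgeR 4.0.16 (quasi-likelihood, robust, two-sided, Benjamini-Hochberg over 13753 genes, threshold 0.05), in R 4.3.3. The test was tried on simulated counts in which libraries of a group shared the same mean for each gene. Members differed widely within groups here, so that trial does not measure how the test performs on them. Each standard error is the fold change divided by the root of its F statistic. With 3 libraries against 3, exact permutation tests reach no p under 0.1, and none is given. Exon lengths, positions and overlaps came from GENCODE M21 (mm10): exons of 17 members overlap a gene on the other strand. Besides Tnnc2 and Myl3 these include Ckm, Mb, Neb, Ttn, Mybpc1, Cacna1s and Myh7. With the strand setting not given, their levels carry the same limit. The members, gene lists and fibre classes were chosen with earlier results of these data known. Fold changes are named for 19 members set by rule, 16 of them tested, and of each related list the 3 most abundant genes, except for an item that is not reported here. Alternatives were DESeq2 1.42.0, scaling by totals, no filter, a replicate block, leaving out libraries and, for the shares, another denominator or set of pairs. The same libraries without the block, a block by the number in the column names and the fast share without Tnnc2 were chosen after seeing the data.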

Additional observations from a re-analysis of the deposited data

How the results depend on the processing

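No member passed in edgeR or DESeq2 under any alternative run, though DESeq2 gave a p for only 19 of the 36 members. Over all genes 0 passed in edgeR, with 196 at an unadjusted p under 0.05, while 4 passed in DESeq2 and 3 with scaling by library totals, and the cause was not tested. Scaling by totals shifted the median of all genes to 0.14 (log2) and that of the members to -0.17, with 7 of 31 positive. At an unadjusted p under 0.05 in edgeR there were 8 of 31 members without DMSO replicate 3, beside 685 of all 14126 genes tested. Without the most muscle-rich library of each group there were 3 of 25 members, beside 390 of 13756 genes. Without the unnumbered DMSO library it was 1 of 31, beside 246 of 14062 genes. Without the low count filter it was 1 of 36, beside 239 of 17478 genes. With 1 library left out in turn, 0 genes passed in edgeR over all genes and over the members, the median of the members ran from -3.05 to 6.03, the difference in muscle share (VUF11207 minus DMSO, main value -0.014 percentage points) from -0.26 to 0.31 and that in fast share (0.58 points) from -0.64 to 1.47. Without seminal vesicle genes in the denominator the difference in muscle share was 0.023 points. Without the Tnnc2 and Tnnc1 pair the difference in fast share was 10.4 points, since that pair holds most fast counts of the poorest libraries.

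Leaving out 1 library in turn, log2 fold changes ran for Acta1 from -0.10 to 0.86, for Actn3 from -3.11 to 3.97, for Ckm from -2.56 to 3.47, for Ttn from -3.73 to 6.63, for Myh1 from -3.08 to 7.16, for Myh2 from -0.96 to 6.18, for Myh4 from -3.37 to 7.23 and for Mylpf from -2.82 to 6.25. They ran for Tnnt3 from -3.17 to 6.48, for Tnnt1 from -0.13 to 1.26, for Tnni2 from -3.02 to 6.03, for Atp2a1 from -3.43 to 6.33, for Ryr1 from -3.91 to 5.73, for Cacna1s from -2.56 to 7.38, for Pvalb from -3.07 to 8.37 and for Mb from -3.38 to 6.05. Without the unnumbered DMSO library Actn3 was at -0.47, Myh1 -0.065, Myh4 -0.46, Mylpf -0.40, Atp2a1 -0.49, Cacna1s -0.55 and Mb -0.57, and Tnnt1 was at 0.45 without VUF11207 replicate 3. The direction of single genes turned with DESeq2 (Ckm 0.0018), without the low count filter (Ckm 0.0037), with scaling by totals (Actn3 -0.16, Myh4 -0.15, Mylpf -0.071, Atp2a1 -0.17, Cacna1s -0.20 and Mb -0.25) and without the most muscle-rich library of each group (Ckm 0.93, Ttn 3.27, Tnnt3 3.38, Tnni2 3.13, Ryr1 1.94 and Pvalb 5.38).

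The titles number replicates 1 to 3 in both groups, but only numbers 2 and 3 could be tied directly to libraries of both. This left 4 libraries for a replicate block, without VUF11207 replicate 1 and the unnumbered DMSO library. Same-numbered libraries deviated together with a correlation of 0.063. With 2 libraries per group this value is the same for both numbers by construction, so it cannot decide whether they are paired. With the block 0 genes and 0 members passed. At an unadjusted p under 0.05 there were 834 of 13770 genes, against 833 of 13770 in the same libraries without it. For the members it was 16 of 31 with the block, against 1 of 31 without it. A block fit on 4 libraries leaves little from which to estimate error. The members' median was -2.495, and the log2 fold changes that turned direction were Acta1 -0.16, Actn3 -2.45, Myh1 -3.10, Myh2 -0.73, Myh4 -2.96, Mylpf -2.37, Atp2a1 -3.33, Cacna1s -1.23 and Mb -3.62. The numbers at the end of the column names, 2, 5 and 6, also occur in both groups, and tie VUF11207 replicate 1 to the unnumbered DMSO library. By elimination among the labels, the unnumbered library would be DMSO replicate 1, which gives the same pairs. Libraries with the same column number had correlations of -0.59, -0.33 and 0.053, and 0 of 6 libraries correlated best with their own number. A pairing by these numbers was thus not seen, but so few libraries per group cannot exclude it. A replicate block by these numbers over all 6 libraries, chosen after seeing the data, gave 0 genes and 0 members passing in edgeR, with 182 genes and 0 members at an unadjusted p under 0.05. The members' median was then -0.26, with 14 of 31 positive, so the median of -2.495 depends on leaving that pair out. Directions turned there for Actn3 at -0.36, Ckm 0.58, Myh1 -1.06, Myh4 -0.99, Mylpf -0.39, Atp2a1 -1.499, Ryr1 0.36, Pvalb 0.91 and Mb -1.81. Depth limits the genes with few counts, such as Myh7, Myl2, Tnni1 and Tnnc1, and the composition of the poorer libraries.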

Other observations

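Muscle genes outside the members departed from the common order in DMSO replicate 2, the library in which 10 seminal vesicle genes took 66.1% of counts. These genes were chosen after their values were seen. Smpx, a small muscle protein that responds to stretch, was at 30.0, 0.302 and 3.58 CPM in VUF11207 replicates 1, 2 and 3 and at 0.481, 90.5 and 16.8 CPM in the unnumbered DMSO library and DMSO replicates 2 and 3. Myh13, the heavy chain of extraocular and laryngeal muscle, had 54 counts in DMSO replicate 2, 10 and 2 in VUF11207 replicates 1 and 3 and 0 in the other 3 libraries. The member Neb, at 12.3 CPM, also stood higher there than most members relative to VUF11207 replicate 1.

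Sox10, a transcription factor of Schwann cells and of some gland cells, was at 12.9, 0.168 and 1.83 CPM with VUF11207 and 0.0370, 0.352 and 15.0 CPM with DMSO, the order of the muscle genes. Sln, sarcolipin, which inhibits the calcium pump, was at 29.0, 0.201 and 0.507 CPM with VUF11207 and 0.0370, 0.211 and 59.2 CPM with DMSO.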
